A study of Mus musculus with 6 samples.

Results

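The genes described here are 10 enzymes of serine, one-carbon, asparagine and proline synthesis, namely *Phgdh*, *Psat1*, *Psph*, *Shmt1*, *Shmt2*, *Mthfd2*, *Mthfd1l*, *Aldh1l2*, *Asns* and *Aldh18a1*. They were taken by name from 36137 genes to which deposited transcripts could be assigned. All 10 were among the 18506 that reached a total of 10 counts and were fitted. The list was drawn up with the *Drp1* KO-to-WT fold changes of these same libraries known, so the genes were in part selected on that contrast, and their fold changes are given as a description without a test. RNA was measured in bone marrow-derived macrophages (BMDMs), which were differentiated for 7 days in medium conditioned by L929 cells and then kept for 8 hours in hypoxia with serum starvation (HSS, 2.1% oxygen), a culture model of ischemia. There were 3 WT and 3 *Drp1* KO libraries. WT mice were LysM-Cre+/- *Drp1*+/+ and *Drp1* KO mice were LysM-Cre+/- *Drp1* fl/fl, so both genotypes carried Cre recombinase, expressed from the lysozyme M promoter of myeloid cells. The mice were 8 to 12 weeks old and marrow of 2 mice per genotype was pooled. The labels call the libraries biological replicates, and whether each came from its own pool of marrow was not stated, so p-values measure the spread between these libraries. The medium in which the cells were maintained held 2 mM glutamine. Every culture was then under HSS, and the amino acids of the starvation medium itself were not given in the sources used here.

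Serine is made from a glycolytic intermediate by PHGDH, PSAT1 and PSPH in turn. SHMT1 in the cytosol and SHMT2 in mitochondria split it into glycine and a one-carbon unit on tetrahydrofolate, which MTHFD2, MTHFD1L and ALDH1L2 oxidise or release as formate or CO2 inside mitochondria. ASNS makes asparagine from aspartate with glutamine as the nitrogen donor, and ALDH18A1 turns glutamate into the precursor of proline and ornithine. In many cell types, transcription of several of these enzymes is known to depend on ATF4, a factor made when translation is restrained by amino acid shortage, endoplasmic reticulum stress or mitochondrial stress.

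Estimated counts totalled between 24269850 and 28650715 per WT library and between 23389488 and 32231206 per *Drp1* KO library. Levels are given as CPM, a gene's share of its library's counts with library sizes scaled by edgeR's TMM factors, and a level of 3 counts was 0.0936 to 0.129 CPM. The 10 genes had 64 to 2535 counts per library, and such counts cover counting error only. All 8 macrophage markers listed were detected, with summed levels of 13412 to 14811 CPM in WT libraries and 11993 to 14417 CPM in *Drp1* KO libraries. *Dnm1l*, which encodes DRP1, had 72.7, 69.9 and 75.1 CPM in WT libraries 1 to 3 and 58.7, 60.7 and 66.3 CPM in *Drp1* KO libraries 1 to 3. The ranges did not overlap, and the log2 fold change of -0.23 (SE 0.0921) did not pass the test (adjusted p = 0.248, edgeR's quasi-likelihood test with Benjamini-Hochberg adjustment). Counts of whole transcripts do not show whether the floxed exon was removed. The libraries numbered 1 of both genotypes stood apart from the others on the second principal component (29.5% of the variance, over the 12248 genes averaging 1 CPM or more), and the first (46.0%) separated the genotypes.

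Promoter sequence from RefSeq (GRCm38.p6) was held for 9 of the 10 genes, with 2 start sites for *Psat1*. The 250 bases before and 50 bases after each start were searched on both strands for the C/EBP-ATF element TGATGNAA, bound by ATF4-containing dimers, the E-box CACGTG and the antioxidant element TGACNNNGC. *Asns* was the only one of the 9 genes with the C/EBP-ATF element, *Aldh18a1* the only one with the E-box, and 3 (*Phgdh*, *Psph* and *Asns*) held the antioxidant element. Over all 32851 promoters in the table, the shares with a match were 3.97% for the C/EBP-ATF element, 7.15% for the E-box and 12.4% for the antioxidant element. The 3 sequences that follow hold matches in capitals, 5′ to 3′ on the gene's strand. They were picked as matches close to the start of a gene with a fold difference above 1.5. A match and a higher level thus go together here by choice, and nothing is read from it. *Psat1* (2.02-fold) had no match, *Aldh1l2* (1.66-fold) had no promoter sequence, and *Psph* (1.23-fold) had a match. The *Asns* sequence is the site alone, chr6:7693214-7693243 on the minus strand of GRCm39, where the element began 23 bases before the RefSeq start and inside the first exon of *Asns*-201, which GENCODE annotates there as 5′ UTR. The *Phgdh* sequence is chr3:98247307-98247535 and the *Aldh18a1* sequence is chr19:40576950-40577157, both on the minus strand. These are the upstream bases that GENCODE holds in no UTR, 229 for *Phgdh* and 208 for *Aldh18a1*. The element of *Phgdh*, read on the opposite strand as the capitals show, began 53 bases before the start, and the E-box of *Aldh18a1* began 59 bases before it.
Asns: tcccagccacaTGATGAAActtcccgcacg
Phgdh: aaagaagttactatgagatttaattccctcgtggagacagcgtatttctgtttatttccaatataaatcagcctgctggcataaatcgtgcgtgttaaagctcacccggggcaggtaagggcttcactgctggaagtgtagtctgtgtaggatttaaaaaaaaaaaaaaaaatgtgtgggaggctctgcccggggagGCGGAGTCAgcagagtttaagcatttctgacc
Aldh18a1: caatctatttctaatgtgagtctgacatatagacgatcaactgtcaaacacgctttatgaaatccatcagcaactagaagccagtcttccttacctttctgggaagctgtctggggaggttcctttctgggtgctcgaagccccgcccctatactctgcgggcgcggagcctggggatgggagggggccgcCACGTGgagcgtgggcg

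A second match of *Asns*, to the antioxidant element, began 172 bases before the start, and that of *Psph* began at base 5 of the transcript. A match is a run of letters and not a measured binding site, and genes without one lack only these letters in this window.

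Of the 10 genes, 8 had a log2 fold change above 0 and 2 below 0 in *Drp1* KO relative to WT BMDMs, with a median of 0.61. The median over all 18506 genes was 0.00 on the same scale. In 6 genes each *Drp1* KO library lay above each WT library in CPM, where 11.7% of all genes did so. In 1 gene each lay below, where 10.3% of all genes did so, and the groups overlapped in 3. At an adjusted p under 0.05 (edgeR's quasi-likelihood test) 3 of the 10 were past the threshold, and 3.36% of all genes were. With the replicate number as a block 7 of the 10 were past it, and 12.0% of all genes were. The same contrast helped to choose the genes, so nothing is read from these shares. The count of 3 was 6 without WT library 1, where 4.08% of all genes were past the threshold. It was 0 in edgeR fits without WT library 2 (181 of 18100 genes, 1%), WT library 3 (1.20%) and *Drp1* KO library 2 (1.49%). At an unadjusted p under 0.05, 7 of the 10 were counted in each of those fits, where 12.0%, 12.3% and 12.4% of all genes were. In a bulk sample, fewer cells expressing a gene and less RNA per cell cannot be told apart.

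**Figure D1:**
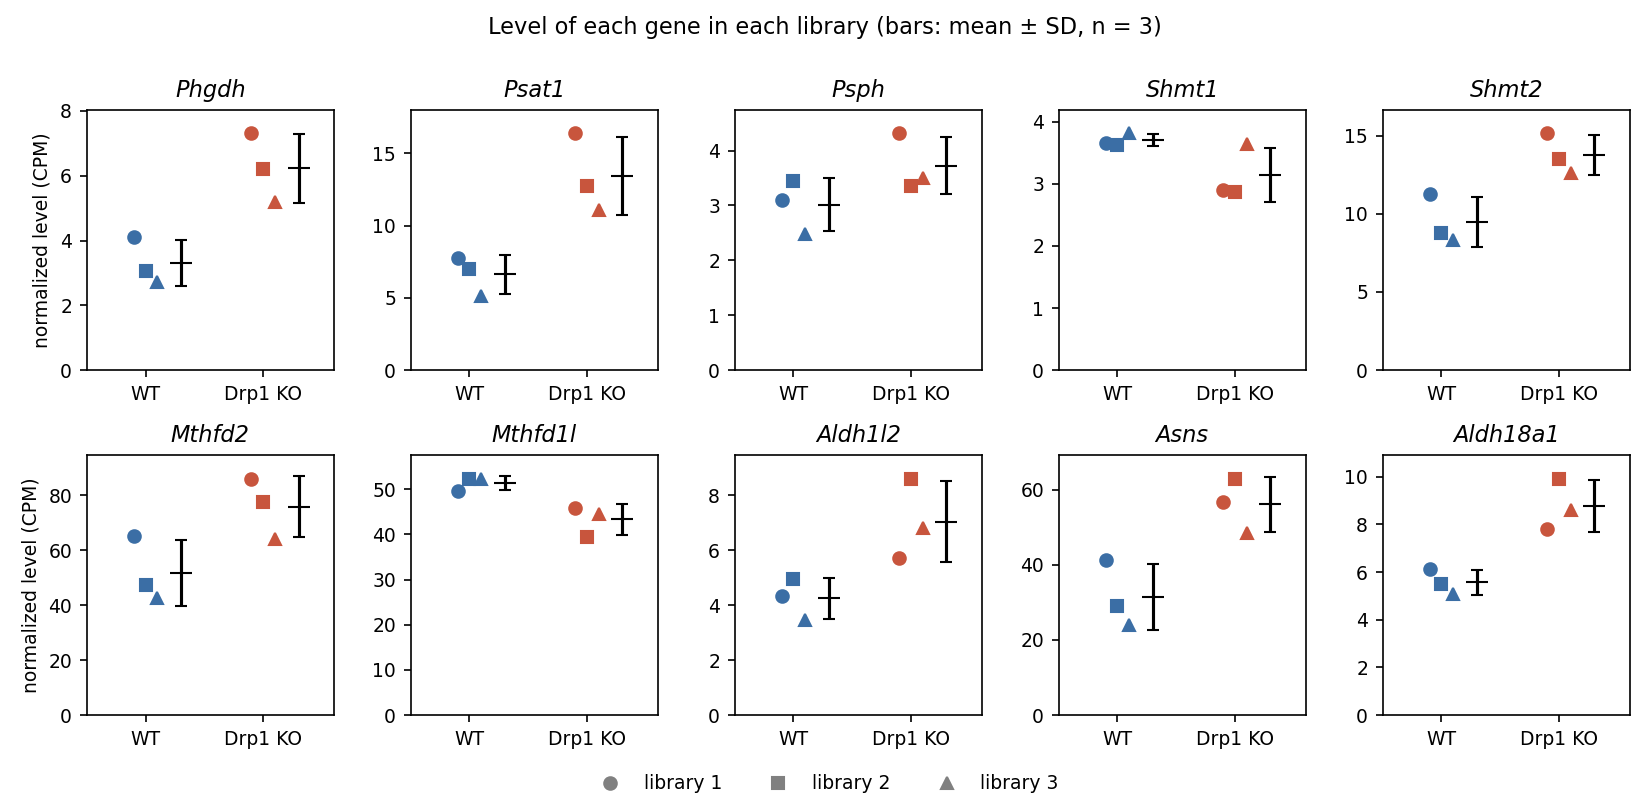
Level of each of the 10 genes in CPM (y axes, from 0) in the 3 WT and 3 *Drp1* KO libraries after 8 hours of HSS, one panel per gene, with a marker shape for each library number and black bars for the mean ± SD. *Phgdh*, *Psat1*, *Shmt2*, *Aldh1l2*, *Asns* and *Aldh18a1* have every *Drp1* KO point above every WT point, and *Mthfd1l* has every one below.

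Of serine synthesis, the enzymes of the first steps were higher in *Drp1* KO libraries, and the groups overlapped for the enzyme of the last step. *Phgdh* (ENSMUSG00000053398, chr3:98220484-98255047, minus strand of GRCm39, as for all loci here), encoding the dehydrogenase that draws carbon out of glycolysis, had 4.10, 3.07 and 2.73 CPM in WT libraries 1 to 3 and 7.31, 6.20 and 5.18 CPM in *Drp1* KO libraries 1 to 3. All *Drp1* KO libraries lay above all WT libraries, and library 1 was the highest of its genotype in both. The means were 3.30 ± 0.713 and 6.23 ± 1.06 CPM (SD, n = 3), a 1.89-fold difference and a log2 fold change of 0.92 (SE 0.212). *Psat1* (ENSMUSG00000024640, chr19:15882039-15924701, minus strand), the aminotransferase of the next step, had 7.76, 6.97 and 5.15 CPM in WT libraries and 16.4, 12.8 and 11.1 CPM in *Drp1* KO libraries. The order of the libraries was that of *Phgdh*, and the groups were again apart. Its log2 fold change was 1.02 (SE 0.195), a 2.02-fold difference. *Psat1*, *Phgdh* and *Asns* differed from each other by less than their standard errors, and their order changed between alternatives.

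*Psph* (ENSMUSG00000029446, chr5:129841925-129864513, minus strand), the phosphatase of the last step, had 3.10, 3.45 and 2.49 CPM in WT libraries and 4.31, 3.36 and 3.50 CPM in *Drp1* KO libraries. Here the groups overlapped, since WT library 2 was above *Drp1* KO library 2. The fold difference was 1.23, with a log2 fold change of 0.30 (SE 0.210), which became 0.17 on leaving out WT library 3 and 0.18 on leaving out *Drp1* KO library 1. *Psph* shares 452 exon bases (8.99%) with *Cct6a* on the other strand, and the strand setting of the counting was not stated, so reads of the pair may not be separable there.

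Serine hydroxymethyltransferase has a mitochondrial and a cytosolic form. *Shmt2* (ENSMUSG00000025403, chr10:127352266-127358323, minus strand), the mitochondrial enzyme, had 11.3, 8.81 and 8.35 CPM in WT libraries and 15.2, 13.5 and 12.6 CPM in *Drp1* KO libraries. All *Drp1* KO libraries exceeded the WT libraries, by 1.45-fold in the fit (log2 fold change 0.54, SE 0.152). *Shmt1* (ENSMUSG00000020534, chr11:60661185-60708167, minus strand), the cytosolic enzyme, had 3.67, 3.64 and 3.82 CPM in WT libraries and 2.91, 2.87 and 3.65 CPM in *Drp1* KO libraries. *Drp1* KO library 3 reached into the narrow WT range, and libraries 1 and 2 lay below it. The log2 fold change was -0.24 (SE 0.190), from -0.35 to -0.17 with 1 library left out and -0.49 with length-scaled counts. It was 0.05 when only transcripts annotated as protein-coding were counted, so the direction of *Shmt1* depended on which transcripts were added. Of the exon bases of *Shmt1*, 184 (4.73%) are shared with *Smcr8* on the other strand.

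Among the mitochondrial folate enzymes, *Mthfd2* (ENSMUSG00000005667, chr6:83282673-83302890, minus strand), a bifunctional dehydrogenase and cyclohydrolase, had 65.2, 47.5 and 42.7 CPM in WT libraries and 86.1, 77.4 and 64.2 CPM in *Drp1* KO libraries. WT library 1 was above *Drp1* KO library 3, so the groups overlapped, although each *Drp1* KO library exceeded the WT library of its own number. The fitted difference was 1.47-fold (log2 fold change 0.55, SE 0.164), and the log2 fold change was 0.22 with length-scaled counts. *Mthfd1l* (ENSMUSG00000040675, chr10:3922870-4117081, plus strand), which releases formate from the pathway, had 49.6, 52.4 and 52.3 CPM in WT libraries and 45.9, 39.5 and 44.6 CPM in *Drp1* KO libraries. All *Drp1* KO libraries were lower than the WT libraries, at 0.842 times the WT level (log2 fold change -0.25, SE 0.0972). Both values are levels per gene and say nothing of flux through the pathway.

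*Aldh1l2* (ENSMUSG00000020256, chr10:83323314-83370005, minus strand), which oxidises mitochondrial formyl-tetrahydrofolate to CO2 and yields NADPH, had 4.36, 4.95 and 3.48 CPM in WT libraries and 5.72, 8.62 and 6.81 CPM in *Drp1* KO libraries. The groups did not overlap, and library 2 was the highest in both genotypes. Its difference was 1.66-fold (log2 fold change 0.73, SE 0.205). The log2 fold change of *Aldh1l2* was 0.37 with length-scaled counts and 1.01 with protein-coding transcripts only. With *Nopchap1*, on the other strand, it shares 1056 exon bases, 14.1% of its exons and the largest such overlap of the 10 genes. *Nopchap1* held 42628 counts over the libraries, and its part in the *Aldh1l2* values was not tested.

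*Asns* (ENSMUSG00000029752, chr6:7671667-7728461, minus strand) had 41.2, 29.0 and 24.1 CPM in WT libraries and 56.8, 63.0 and 48.5 CPM in *Drp1* KO libraries. The lowest *Drp1* KO library was above the highest WT library, and the means were 31.4 ± 8.82 and 56.1 ± 7.25 CPM (SD, n = 3). This is a 1.79-fold difference (log2 fold change 0.84, SE 0.182). *Aldh18a1* (ENSMUSG00000025007, chr19:40538698-40576949, minus strand) had 6.12, 5.51 and 5.08 CPM in WT libraries and 7.81, 9.93 and 8.59 CPM in *Drp1* KO libraries. These groups were apart as well, at 1.58-fold (log2 fold change 0.66, SE 0.158).

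Libraries of the same number were set beside each other because their deviations from the genotype means were correlated (r of 0.510, 0.204 and 0.298). WT library 2 correlated more with *Drp1* KO library 3 (0.326), and the study states no pairing. Pairs 2 and 3, and values with the replicate block, therefore rest on an assumption. The *Drp1* KO library exceeded the WT library in all 3 pairs for *Phgdh*, *Psat1*, *Shmt2*, *Mthfd2*, *Aldh1l2*, *Asns* and *Aldh18a1*. In *Shmt1* and *Mthfd1l* it was lower in all 3, and in *Psph* the pairs were mixed. The share of all genes with the same sign in all 3 pairs was not counted, so nothing is read from this. For *Psat1* the log2 differences of pairs 1 to 3 were 1.08, 0.87 and 1.11, and for *Phgdh* they were 0.84, 1.01 and 0.93. *Asns* had 0.46 in pair 1 against 1.12 and 1.01 in the others, *Aldh18a1* had 0.35 against 0.85 and 0.76, and *Aldh1l2* had 0.39 against 0.80 and 0.97. Pair 1 thus gave the smallest difference for these 3 genes and for *Phgdh*. It did so too for *Mthfd2* (0.40 against 0.71 and 0.59) and *Shmt2* (0.42 against 0.62 and 0.59). *Mthfd1l* also had its smallest difference in size in pair 1 (-0.11 against -0.41 and -0.23). For *Psat1* the smallest was in pair 2, and for *Shmt1* it was in pair 3 (-0.06). Library 1 was the highest WT library for 6 of the 10 genes and the highest *Drp1* KO library for 6.

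**Figure D2:**
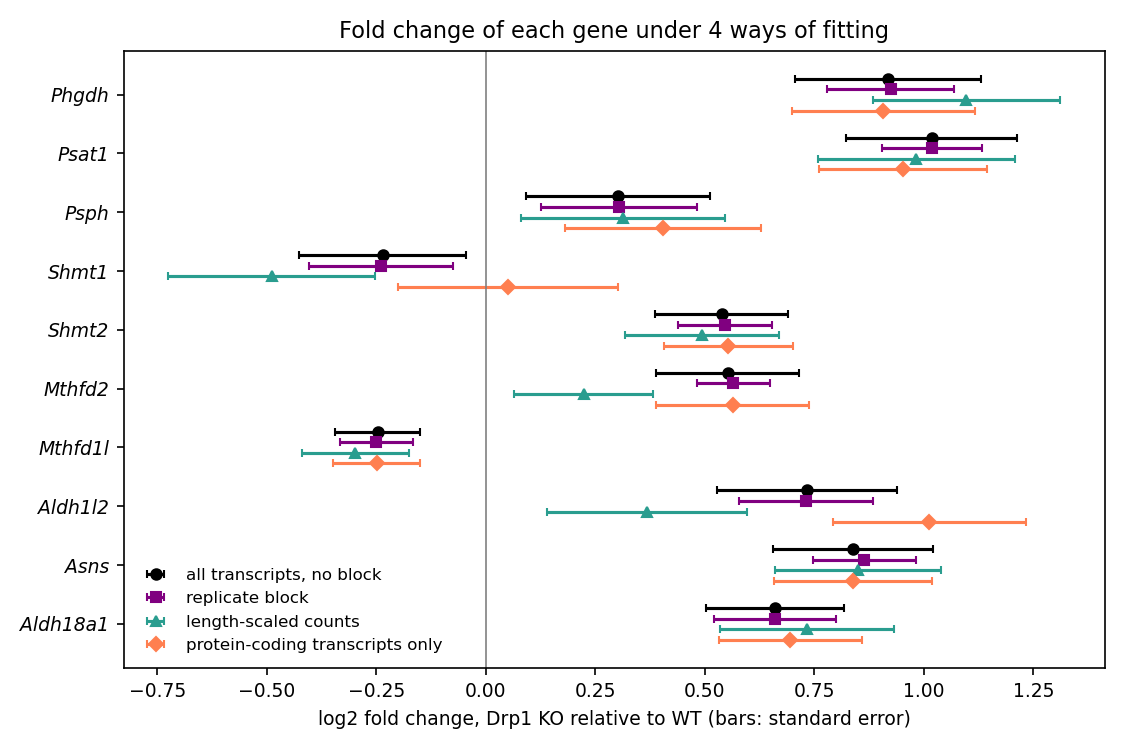
Log2 fold change of *Drp1* KO relative to WT (x axis) for each gene under 4 ways of fitting the counts, with bars for the standard error. *Shmt1* changes side of 0 when only protein-coding transcripts are counted, and *Mthfd2* and *Aldh1l2* are nearer to 0 with length-scaled counts.

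Levels were compared between genes in TPM, kallisto's transcript abundance scaled for length and library total. In WT BMDMs *Mthfd2* was the most abundant, at a median of 54.4 TPM, followed by *Mthfd1l* at 32.5 and *Asns* at 22.3 TPM. The other 7 had medians of 7.74 TPM (*Shmt1*) to 2.04 TPM (*Aldh18a1*). The WT ranges of *Mthfd1l* and *Asns* overlapped, as did those of *Shmt2* and *Psat1*, *Psat1* and *Phgdh*, *Psph* and *Aldh1l2*, and *Aldh1l2* and *Aldh18a1*, so these neighbours could not be ordered beyond their spread. In *Drp1* KO BMDMs *Mthfd2* had a median of 62.9 TPM, and *Asns* (40.0 TPM) stood above *Mthfd1l* (23.7 TPM) with no overlap. *Psat1* had 7.69 TPM, *Shmt2* 6.97 TPM and *Shmt1* 4.55 TPM, so that *Shmt1*, of rank 4 in WT libraries, had rank 7 in *Drp1* KO libraries. Most of that level was on short transcripts other than the coding *Shmt1*-201, which alone had 0.851 to 0.933 TPM in WT libraries and 0.675 to 0.981 TPM in *Drp1* KO libraries, with overlap. The range of the whole gene in *Drp1* KO libraries, 4.28 to 6.69 TPM, overlapped that of *Shmt2*.

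**Figure D3:**
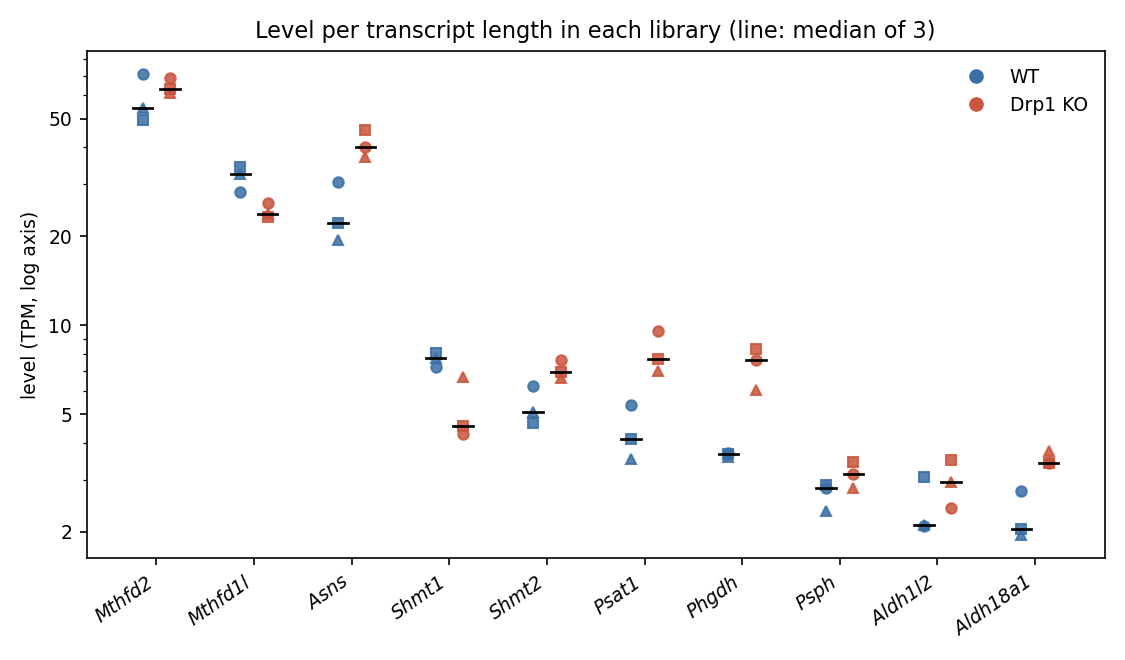
Level per length of each gene in TPM on a log axis, with genes ordered by the WT median, 3 libraries per genotype (marker shape for the library number) and a line for the median. *Mthfd2*, *Mthfd1l* and *Asns* lie well above the other 7 genes in both genotypes, and the medians of *Asns* and *Mthfd1l* change places between them.

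The share of a gene's counts held by its main transcript is given as a description, since the gene total by which it is divided helped to choose the genes. Shares that did not overlap between genotypes were found in 1 of the 10, and in 18.6% of 12481 genes with more than 1 transcript, in either direction. *Aldh1l2*-201, the full coding transcript, held 72.8%, 60.0% and 65.1% of the counts in WT and 80.5%, 79.5% and 78.3% in *Drp1* KO libraries. The means were 65.9% ± 6.44 and 79.5% ± 1.11 (SD, n = 3), a difference of 13.5 percentage points. Nearly all other counts were on *Aldh1l2*-204, a transcript of 1383 bases without a defined coding sequence, which had 23.9 to 57.7 estimated counts per library. In the 9 other genes the shares overlapped, with differences from -11.0 points (*Shmt2*) to 9.09 points (*Shmt1*). *Shmt1*-201 held only 45.6% to 51.0% of the counts in WT libraries, and retained-intron and undefined transcripts of the gene held most of the others. By share of TPM, *Mthfd2*-201 and *Shmt1*-201 were apart as well as *Aldh1l2*-201, which is 3 of the 10, where 18.9% of the 12481 genes were. For *Mthfd2*-201 that share was 58.0% ± 3.36 in WT and 73.2% ± 3.82 in *Drp1* KO libraries (SD, n = 3). The transcript ENSMUST00000139802 of *Mthfd2*, a retained-intron form of 358 bases named here after its values were seen, held 4.74%, 3.02% and 5.54% of the gene's counts in WT and 1.44%, 0.549% and 2.60% in *Drp1* KO libraries, and a TPM gives such a short transcript a greater weight.

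**Figure D4:**
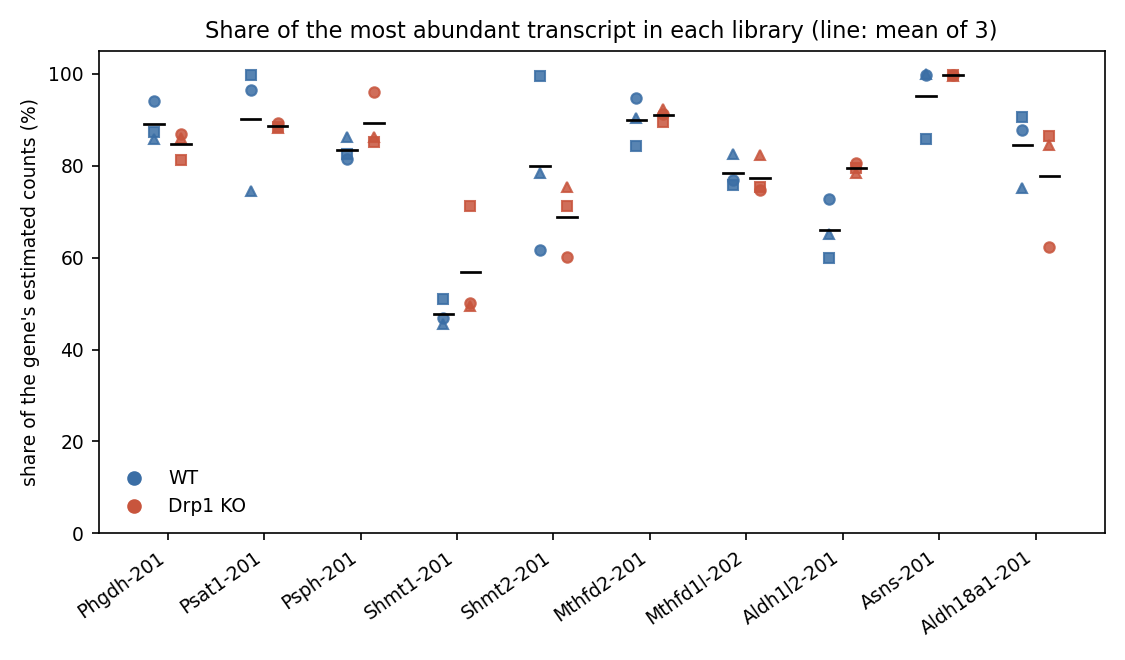
Percentage of each gene's estimated counts held by its main transcript (y axis, from 0) in the 3 WT and 3 *Drp1* KO libraries, with a line for each mean. *Aldh1l2*-201 is the only one with all *Drp1* KO points (78.3% to 80.5%) above all WT points (60.0% to 72.8%).

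The other enzymes and carriers of these pathways, 51 genes in 4 lists, are given for themselves, since the choice of the 10 genes fixed how they compare. Of 47 tested, 1 was past an adjusted p of 0.05 (edgeR's quasi-likelihood test), 4 were under an unadjusted p of 0.05, and the median log2 fold change was 0.09. For this fit the share of all genes under that unadjusted p was not counted, here and for the lists below. *Mat2a*, encoding the enzyme that makes S-adenosylmethionine from methionine, rose from 23.0, 22.2 and 22.5 CPM in WT to 33.3, 37.3 and 40.2 CPM in *Drp1* KO libraries. The groups were well apart, with a log2 fold change of 0.71 (SE 0.107) and an adjusted p of 0.0062 by edgeR's quasi-likelihood test. It was past the threshold in 14 of 15 alternatives, and lost the call without WT library 2 (adjusted p = 0.0579 by the same edgeR test).

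The list of other serine and glycine genes had 0 of 11 past the threshold (median 0.09), with 0 at an unadjusted p under 0.05 by edgeR and 0 past it by DESeq2. *Sfxn1*, the mitochondrial serine carrier, had a log2 fold change of -0.04 (SE 0.114). In the folate list, *Mat2a* was the one gene of 19 past the threshold (median 0.09). *Mthfd1*, the cytosolic trifunctional enzyme, had a log2 fold change of -0.12 (SE 0.128), *Mthfd2l*, the close relative of *Mthfd2*, had 0.01 (SE 0.175), and *Slc25a32*, the mitochondrial folate carrier, had 0.04 (SE 0.121). None of these 4 was past the threshold in any alternative.

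The list of other asparagine, aspartate, glutamate and alanine genes had 0 of 10 past the threshold (median 0.15), with 1 at an unadjusted p under 0.05 by edgeR and 0 past it by DESeq2. With the replicate block, where 12.0% of all genes were past the threshold, 1 of the 10 was lower, *Glul* (glutamine synthetase; log2 fold change -0.34, adjusted p = 0.0149 in edgeR). The *Glul* log2 fold change was -0.34 without the block and 0.13 with length-scaled counts. The proline and ornithine list had 0 of 7 (median -0.11), again with 1 at an unadjusted p under 0.05 and 0 by DESeq2. *Pycr1*, which completes proline synthesis downstream of ALDH18A1, had 1.66 ± 0.560 CPM in WT libraries and 1.20 ± 0.253 CPM in *Drp1* KO libraries (SD, n = 3; log2 fold change -0.46, SE 0.330, and -0.71 to -0.26 with 1 library left out). In these lists 4 genes had under 10 counts and were not tested (*Sds*, *Sdsl*, *Agxt* and *Aspg*).

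Of 19 genes of the stress response, among them ATF4, the kinases upstream of it and genes it is known to induce, 1 was past the threshold and 7 were under an unadjusted p of 0.05 (median log2 fold change 0.12). *Trib3*, a pseudokinase induced by ATF4, rose from 22.5, 15.0 and 14.1 CPM in WT to 42.4, 37.4 and 24.4 CPM in *Drp1* KO libraries. All *Drp1* KO libraries were above all WT libraries, with a log2 fold change of 1.01 (SE 0.224; adjusted p = 0.0383, edgeR's quasi-likelihood test). In edgeR fits that left 1 library out, that call was lost for WT library 2 (adjusted p = 0.199) and 3 (0.178) and for *Drp1* KO library 1 (0.0734) and 2 (0.152).

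*Atf4* itself had 205.9, 148.6 and 141.6 CPM in WT libraries and 302.6, 243.9 and 170.9 CPM in *Drp1* KO libraries. *Drp1* KO library 3 lay inside the WT range, and the log2 fold change of 0.53 (SE 0.202) was not past the threshold (adjusted p = 0.218 in edgeR's quasi-likelihood test, and 0.00442 with the replicate block). The *Atf4* log2 fold change was 0.31 without *Drp1* KO library 1. *Ddit3* (ENSMUSG00000025408), encoding the stress factor CHOP, had 118, 61.5 and 51.6 CPM in WT libraries and 186, 157 and 79.6 CPM in *Drp1* KO libraries. Its groups overlapped too, with a log2 fold change of 0.87 (SE 0.336; adjusted p = 0.225 in edgeR, 0.00147 with the replicate block and 0.0391 without WT library 1). With the block, under which 12.0% of all genes were past the threshold, 7 of the 19 were higher (*Atf4*, *Ddit3*, *Trib3*, *Chac1*, *Ddit4*, *Nupr1* and *Eif2ak2*) and *Eif2ak3* was lower. ATF4 is controlled largely at translation, which mRNA counts do not measure.

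**Figure D5:**
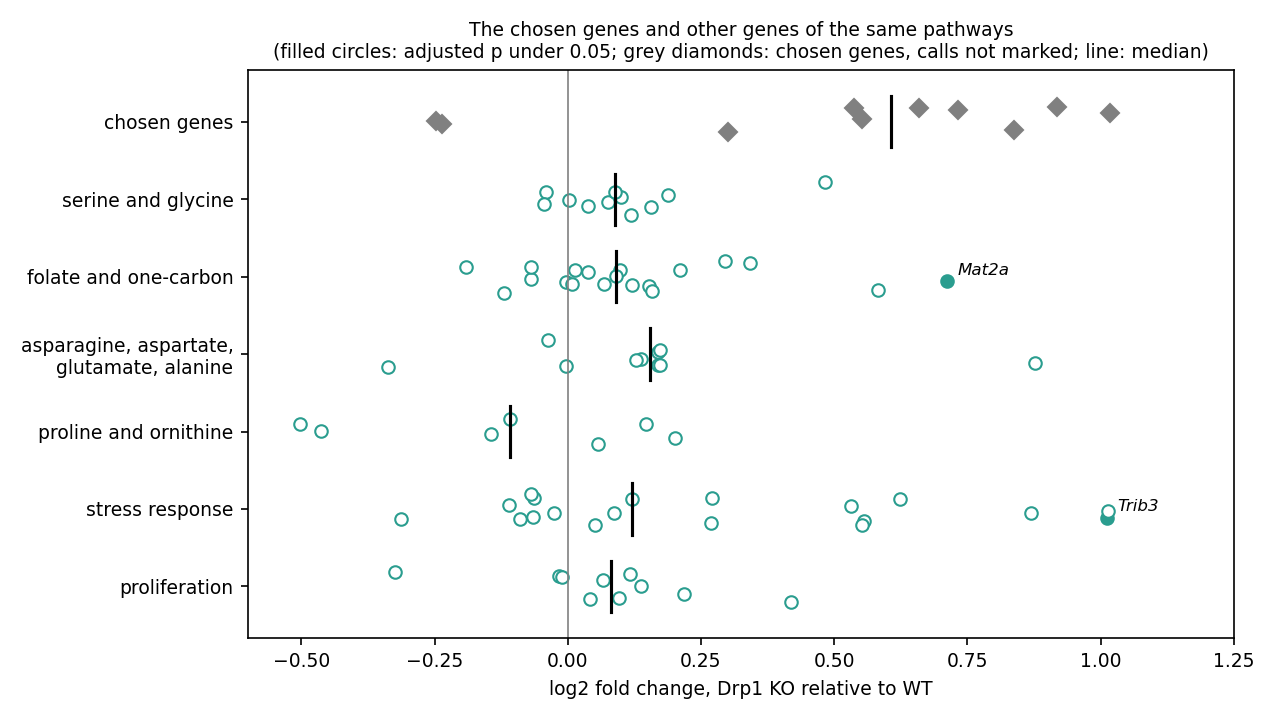
Log2 fold change of *Drp1* KO relative to WT (x axis) for the 10 chosen genes (grey diamonds, calls not marked) and for the tested genes of 6 other lists, with filled circles for an adjusted p under 0.05 and a vertical line for each median. The chosen genes have a median of 0.61, which their choice helped to set, the medians of the other lists lie between -0.11 and 0.15, and *Mat2a* and *Trib3* are the filled circles.

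Proliferation genes, a setting in which these enzymes are often high, had 0 of 10 past the threshold (median 0.08), with 0 at an unadjusted p under 0.05 by edgeR and 0 past it by DESeq2. Their summed level was 571 to 709 CPM in WT libraries and 530 to 703 CPM in *Drp1* KO libraries. *Mki67*, a marker of cycling cells, had 207 ± 28.5 CPM in WT libraries and 166 ± 51.3 CPM in *Drp1* KO libraries (SD, n = 3; log2 fold change -0.32, SE 0.190, adjusted p = 0.455 in edgeR, and 0.0279 with the replicate block). The value for *Mki67* without *Drp1* KO library 1 was -0.62 (adjusted p = 0.0275 in edgeR.

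The summed level of neutrophil markers was 89.5 to 97.3 CPM in WT libraries and 118 to 220 CPM in *Drp1* KO libraries. Of 10 markers, 7 were tested and 0 were past the threshold, with 5 at an unadjusted p under 0.05 by edgeR and 2 past the threshold by DESeq2. With the replicate block 5 were past it and higher, where 12.0% of all genes were past it in either direction. *Mmp8* held most of the sum, and without it the other 6 summed to 6.81, 19.0 and 21.1 CPM in WT libraries 1 to 3 and 20.5, 48.3 and 46.2 CPM in *Drp1* KO libraries 1 to 3, with overlap. The defining markers *Ly6g*, *Elane* and *Retnlg* had under 10 counts over all libraries. The part of neutrophil transcripts in the differences of the 10 genes was not tested. Dendritic cell markers summed to 44.3 to 64.0 CPM in WT libraries and 32.0 to 51.3 CPM in *Drp1* KO libraries, fibroblast markers to 2.73 to 3.79 and 2.41 to 2.64 CPM, and lymphocyte markers to 5.26 to 7.01 and 4.04 to 6.42 CPM. Of the 8 macrophage markers, 1 rose and 2 fell. *Fcgr1* rose (log2 fold change 1.34, adjusted p = 0.000322) and *Csf1r* (-0.52, adjusted p = 0.0340) and *Mertk* (-0.52, adjusted p = 0.0236) fell, by edgeR's quasi-likelihood test. With 1 library left out, the call of *Fcgr1* was never lost, that of *Csf1r* was lost in 5 of 6 edgeR fits (adjusted p of 0.0635 to 0.133 for WT library 1, 2 or 3 and *Drp1* KO library 2 or 3), and that of *Mertk* in 4 of 6 (0.0621 to 0.118 for WT library 2 or 3 and *Drp1* KO library 2 or 3). With length-scaled counts *Csf1r* had a log2 fold change of -0.30 (adjusted p = 0.2095 in edgeR).

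The 10 genes did not share one pattern over the 6 libraries. Each gene's log2 CPM was set against the mean of the 9 others, as a description over libraries that share the genotype contrast used to choose them. *Psat1* (r = 0.973), *Phgdh* (0.963), *Shmt2* (0.961), *Asns* (0.948) and *Mthfd2* (0.928) followed the others closely, and *Aldh18a1* (0.839), *Psph* (0.787) and *Aldh1l2* (0.740) less so. *Shmt1* (-0.821) and *Mthfd1l* (-0.843) ran the opposite way. Outside the list, the genes most like the mean of the 10 among 12238 with a mean of at least 1 CPM were *Osgin2* (r = 0.998), *Bcl2a1a* (0.995), *Tmcc3* (0.990), *Mrgpre* (0.989) and *Ntaq1* (0.989). *Osgin2* had 30.8, 27.5 and 23.0 CPM in WT libraries and 40.5, 35.9 and 36.4 CPM in *Drp1* KO libraries. All these genes were compared over the same 6 libraries, of which 3 are of each genotype.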

How the data were processed

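Poly(A) RNA of 3 WT and 3 *Drp1* KO BMDM cultures was sequenced with paired-end reads. The authors quantified it with kallisto 0.46.1 on Ensembl cDNA of GRCm39 and deposited estimated counts and TPM per transcript, with lengths and effective lengths. The strand and bias settings were not given in the sources used here, and 17986 transcripts had an effective length above their length. Of 116873 transcripts 116159 (99.4%) matched GENCODE by identifier, and 0.542% to 0.575% of counts on the others were left out.

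Gene totals of the estimated counts were rounded and fitted with edgeR 4.0.16 (R 4.3.3; TMM, genes with at least 10 counts in total, quasi-likelihood test of genotype with no covariate, two-sided). P-values were adjusted by Benjamini-Hochberg over all genes. CPM values use TMM-scaled library sizes, and the deposited TPM were added per gene for levels. On simulated counts for 18199 genes with 200 changed 2-fold, the test recovered 89% and called 11 unchanged genes. The simulation gave all genes the same dispersion, had no shift of the libraries numbered 1, and drew changed genes only above a minimum count. Its recovery therefore checks the procedure and is not the power of the test in these data.

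The 10 genes, the other lists and the tests were chosen with earlier results of these data known. Besides the 10 genes, the text names genes of each list past the threshold, 9 genes whatever their result, *Dnm1l*, and the 5 genes most alike. Genes called only with the replicate block, and *Mmp8*, were named after their values were seen. Same-numbered libraries of the genotypes had deviations from the group means correlated at 0.510, 0.204 and 0.298 over 12248 genes, each over 0.1, although WT library 2 correlated more with *Drp1* KO library 3 (0.326). On the evidence of the same-numbered pairs alone the numbers were treated as pairing libraries, since the study does not say so. Chi-square per degree of freedom was at least 9.50 between libraries of a genotype, well above sampling noise. Alternatives were DESeq2 1.42.0, other size factors, filters, length scaling, protein-coding transcripts only, the replicate block and leaving out each library. A further result is not reported here.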

Additional observations from a re-analysis of the deposited data

How the results depend on the processing

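The number of all genes past an adjusted p of 0.05 was 621. It was 1155 with DESeq2, 1065 with genes of at least 1 count and 612 with protein-coding transcripts only. Median-of-ratios size factors gave 603 and length-scaled counts gave 453. The replicate block that pairs same-numbered libraries gave 2212. Without both libraries numbered 1, an alternative chosen after seeing the data, the number was 1880. With 1 library left out it ran from 181 to 904. The counts below are to be set beside these, and nothing is read from those of the 10 genes, which this contrast helped to choose. For the 10 genes the count of 3 was 7 with DESeq2, 6 with at least 1 count, 5 with protein-coding transcripts only, 2 with median-of-ratios size factors or length-scaled counts, 7 with the replicate block and 7 without both libraries numbered 1, and it ran from 0 to 6 with 1 library left out. For the other pathway genes the count of 2 was 5 with DESeq2, 6 with at least 1 count, 12 with the replicate block and 9 without both libraries numbered 1, and it ran from 0 to 5 with 1 library left out. The transcript shares that did not overlap numbered 1 by counts and 3 by TPM. Of 150 alternative log2 fold changes of the 10 genes, 145 lay within the spread between replicates (SD of log2 CPM within genotypes) of the value reported. The 5 others were those of *Shmt1* with length-scaled counts (-0.49) and protein-coding transcripts only (0.05), *Mthfd2* with length-scaled counts (0.22), and *Aldh1l2* with length-scaled counts (0.37) and protein-coding transcripts only (1.01). In 9 of the 10 genes the sign was the same in all 15 settings, and *Shmt1* was the exception. Every setting reuses these libraries for genes chosen in part on this contrast. Likeness in size or sign was therefore largely fixed in advance and is no independent support. The causes were not tested. A fit that leaves out 1 library assumes that the others vary as the full groups do. *Psph* and *Shmt1* had 64 to 119 counts per library, which limits their precision.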
